A study of Canis lupus familiaris with 10 samples.

Results

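The cholesterol and fatty acid synthesis genes were a listed set of 31 genes, taken by exact gene symbol from the deposited table and not by any measured value. Of the 31, 18 encode enzymes of cholesterol synthesis, 4 encode regulators of sterol and lipid gene expression, and 9 encode enzymes of fatty acid synthesis, elongation and desaturation. The table held 29 of them among its 23266 genes, and SREBF2 and FADS1 were not analysed here. A further 2 genes, TM7SF2 and ELOVL6, did not reach a normalized read count of 10 in at least 5 libraries, so that 27 of the 12397 genes tested belonged to the set.

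Cells build cholesterol from acetyl-CoA through the mevalonate pathway, which first yields isoprenoid units, then squalene and lanosterol, and finally removes methyl groups and shifts double bonds until cholesterol is reached. When sterols in the endoplasmic reticulum are low, SCAP carries the SREBP transcription factors to the Golgi for cleavage, and the released fragments switch on the genes of this pathway together. INSIG proteins hold SCAP back when sterols are plentiful. SREBP-1, encoded by SREBF1, drives above all the genes of fatty acid synthesis, and SREBP-2 those of cholesterol synthesis. In skin, keratinocytes and sebaceous glands are known as strong lipid producers.

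The tissue was canine cutaneous histiocytoma (CCH). This benign tumor of Langerhans cell type in dog skin typically regresses spontaneously while lymphocytes enter it. RNA of formalin-fixed, paraffin-embedded (FFPE) tumors from pet dogs was sequenced with QuantSeq 3′, which reads the 3′ end of polyadenylated transcripts. There were 5 early CCH (group 1 of the histological scheme named in the labels) and 5 late CCH (group 3, lymphocyte enriched), and no untreated or normal skin entered the comparison. The dogs were 0.5 to 5 years old in early CCH (4 with an age given) and 1.5 to 9 years old in late CCH. Each RNA came from whole cross sections of trimmed tumors of different dogs, so that the groups are not successive samples of the same tumor. The comparison asks which genes differ between the early and the late, lymphocyte-rich stage.

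The libraries held 2973125 to 4439709 reads assigned to genes, and 1 read was worth 0.788 to 1.07 normalized read counts. The share of RNA fragments over the DV200 length threshold was 68.5% ± 2.46 in early and 73.2% ± 2.09 in late CCH (SD, n = 5 each), and the study lists RNA extraction batches and index sets that each held 1 stage only. Effects of batch and of stage therefore cannot be told apart. The summed value of 10 T cell markers was 71.4 to 2316 in early and 3355 to 5653 in late CCH. The sum over 7 Langerhans and dendritic cell markers was 981 to 2105 in early and 583 to 1083 in late CCH. Keratinocyte markers varied strongly inside both stages, with a sum over 10 genes of 1032 to 17882 in early and 778 to 10013 in late CCH. In bulk tissue, fewer cells of a type and less RNA per cell cannot be told apart, and the part of these cell types in the values below was not tested except where a measurement is given.

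None of the 27 synthesis genes tested was called in either direction by limma, where a call needed a p of 0.05 or less after Benjamini-Yekutieli (BY) adjustment together with a log2FC (late minus early, on the log2 scale) at or beyond 1 or −1. The same test called 1.06% of all genes higher and 1.11% lower in late CCH. With the Benjamini-Hochberg (BH) adjustment 0 of 27 again passed, against 5.53% of all genes higher and 3.52% lower. At an unadjusted limma p of at most 0.05, 1 gene was higher (HSD17B7) and 3 were lower (FADS2, ACLY and ACAT2), 14.8% of the set. Of all genes 15.6% were higher and 15.3% lower, 30.9% together. No synthesis gene had all 5 late values above or all below the 5 early values, which 5.91% and 6.05% of all genes had. edgeR called 0 of 27 on the read counts recovered from the table, and DESeq2 called 0 higher and 1 lower, FADS2. Of all 12397 genes tested, edgeR called 81 higher and 96 lower, and DESeq2 480 higher and 330 lower.

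The values did not show that the stages were alike. The 95% confidence interval of the log2FC lay inside −1 to 1 for 12 of 27 genes (44.4%, against 45.0% of all genes), so that the interval of the other 15 reached past a log2FC of 1 in size. It held 0 for 23 of 27. The median log2FC was 0.18 over the set (16 genes above 0, 11 below) and −0.0037 over all genes tested. By branch it was 0.34 for the 17 cholesterol synthesis genes (13 above 0, 4 below), 0.32 for the 3 regulators (2 above 0) and −0.28 for the 7 fatty acid genes (1 above 0, 6 below). Without late replicate 5 the median of the set was −0.0042 that of the cholesterol genes 0.11, that of the regulators 0.063 and that of the fatty acid genes −0.33.

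**Figure D1:**
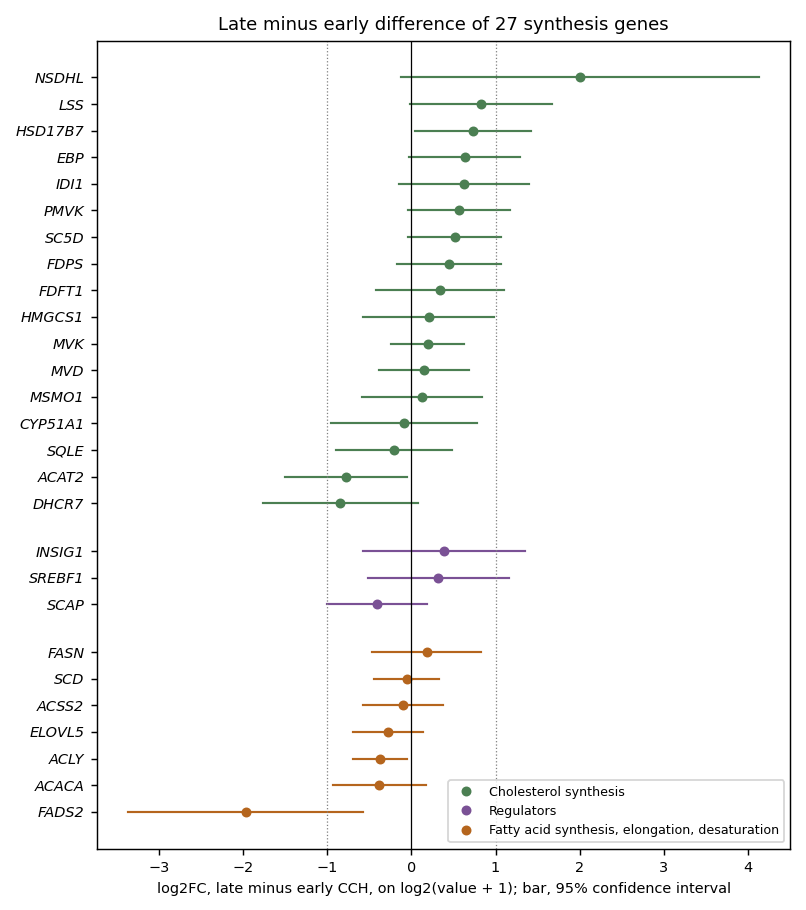
Difference between late and early CCH for the 27 tested synthesis genes, as log2FC on the log2(value + 1) scale (x axis), with 95% confidence intervals as bars, by branch and ordered by size. The interval of 23 genes crosses the line at 0; the widest are those of NSDHL at 2.00 and FADS2 at −1.97, and the dotted lines mark −1 and 1.

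The mevalonate steps come first. HMGCS1, which makes HMG-CoA from acetoacetyl-CoA and acetyl-CoA, had the highest mean value of the cholesterol genes. Its normalized read count was 269, 185, 386, 331 and 148 in early replicates 1 to 5 and 151, 441, 196, 279 and 528 in late replicates 1 to 5. Both stages reached from about the same low level to high values, and the highest was late replicate 5. The log2FC was 0.20 ± 0.36 (SE), with a 95% confidence interval of −0.57 to 0.98, and it turned to −0.015 without late replicate 5.

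ACAT2, the cytosolic thiolase that joins acetyl-CoA units ahead of HMGCS1, had 169, 88.4, 165, 209.5 and 112 in early and 41.8, 146, 86.2, 64.4 and 110.2 in late CCH. The early values were mostly the higher ones, but 3 late values lay within or just below the early range. The log2FC was −0.78 ± 0.34 (SE), with an interval of −1.51 to −0.056 (limma, BY-adjusted p = 1, BH-adjusted p = 0.132).

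PMVK, the kinase that phosphorylates mevalonate phosphate, had 26.7, 26.1, 46.1, 25.2 and 50.5 in early and 64.6, 40.9, 47.5, 54.2 and 45.1 in late CCH. A group of 3 early libraries lay below all late ones, and early replicates 3 and 5 lay among them. The log2FC was 0.57 ± 0.28 (SE; limma, BY-adjusted p = 1, BH-adjusted p = 0.192). MVK, the mevalonate kinase, and MVD, the decarboxylase that yields isopentenyl diphosphate, had log2FC of 0.19 and 0.15, and MVK was among the evenest of the cholesterol genes, with means of 83.5 ± 8.38 in early and 97.1 ± 21.7 in late CCH (SD, n = 5).

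The isoprenoid and squalene steps followed. IDI1, which interconverts the isoprenoid units, FDPS, which joins them to farnesyl diphosphate, FDFT1, the squalene synthase, and SQLE, the squalene epoxidase, had log2FC of 0.62, 0.45, 0.34 and −0.21, none with an unadjusted p of at most 0.05. Without late replicate 5, IDI1 was 0.36 and FDFT1 0.077. LSS, which closes the ring to lanosterol, had 91.4, 42.8, 70.6, 107 and 30.1 in early and 54.7, 139.9, 115, 97.1 and 189 in late CCH. Late replicates 2, 3 and 5 lay above every early value, while late replicate 1 lay low in the early range. The log2FC was 0.83 ± 0.39 (SE; interval −0.020 to 1.67, limma, BY-adjusted p = 1, BH-adjusted p = 0.172).

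Beyond lanosterol, CYP51A1, the demethylase of the first step, had 96.2, 42.8, 78.7, 92.2 and 53.7 in early and 45.7, 98.9, 40.7, 39.9 and 159 in late CCH. A trio of late libraries lay near or below the lowest early one and late replicate 5 far above the highest, so that the late values enclosed the early ones. The log2FC of −0.087 ± 0.40 (SE) had no stable sign: it was 0.0014 with scaling to the column total, 0.093 by edgeR and 0.081 by DESeq2. MSMO1, the methylsterol oxidase, had a log2FC of 0.12 that was −0.10 without late replicate 5.

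NSDHL, a dehydrogenase that takes part in removing methyl groups from the sterol ring, had the largest positive log2FC of the set, at 2.00. Its normalized read count was 11.4, 0, 9.05, 4.73 and 60.1 in early and 27.8, 25.7, 50.4, 7.16 and 139.5 in late CCH. The value of 0 in early replicate 2 allows up to 2.79, what 3 reads are worth there. A set of 4 early libraries lay at or below 11.4, but early replicate 5 was above 4 of the late libraries and late replicate 4 was below 3 of the early ones. The SE was 0.98, the widest of the 27, with an interval of −0.12 to 4.13 (limma, BY-adjusted p = 1, BH-adjusted p = 0.188). The log2FC was 1.23 without early replicate 2, the library at 0, 1.49 without late replicate 5 and 2.72 without early replicate 5.

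HSD17B7, the ketoreductase that acts beside NSDHL, had 71.4, 42.8, 92.3, 40.96 and 79.4 in early and 89.5, 109, 57.1, 128 and 168 in late CCH. In late CCH 3 libraries lay above all early ones and 2 inside their range. The log2FC was 0.73 ± 0.32 (SE; interval 0.039 to 1.43, limma, BY-adjusted p = 1, BH-adjusted p = 0.140). Without late replicate 5 it was 0.56 and no longer had an unadjusted p of at most 0.05.

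The last steps differed in sign. EBP, the sterol isomerase, had 28.6, 40.9, 23.5, 48.8 and 18.3 in early and 34.8, 53.3, 48.4, 46.0 and 56.7 in late CCH, with a log2FC of 0.63 ± 0.30 (SE; limma, BY-adjusted p = 1, BH-adjusted p = 0.181). SC5D, the desaturase that makes 7-dehydrocholesterol, had 57.1, 44.7, 86.8, 67.7 and 101 in early and 86.5, 69.5, 113, 116 and 118 in late CCH, with a log2FC of 0.52 ± 0.26 (SE; limma, BY-adjusted p = 1, BH-adjusted p = 0.194). For both genes most late values lay at the upper end of the early range or above it.

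DHCR7, which reduces 7-dehydrocholesterol to cholesterol and is the step after SC5D, lay on the other side. It had 32.4, 22.3, 56.1, 54.3 and 42.9 in early and 13.9, 19.98, 38.7, 10.2 and 39.9 in late CCH. Late replicates 1, 2 and 4 were below every early library, while late replicates 3 and 5 lay inside the early range. The log2FC was −0.85 ± 0.43 (SE; interval −1.77 to 0.073, limma, BY-adjusted p = 1, BH-adjusted p = 0.197), and −1.06 without late replicate 5, where its unadjusted p was at most 0.05. TM7SF2, a sterol reductase, was not tested, with values of 4.52 to 9.45 in early and 0 to 21.0 in late CCH.

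**Figure D2:**
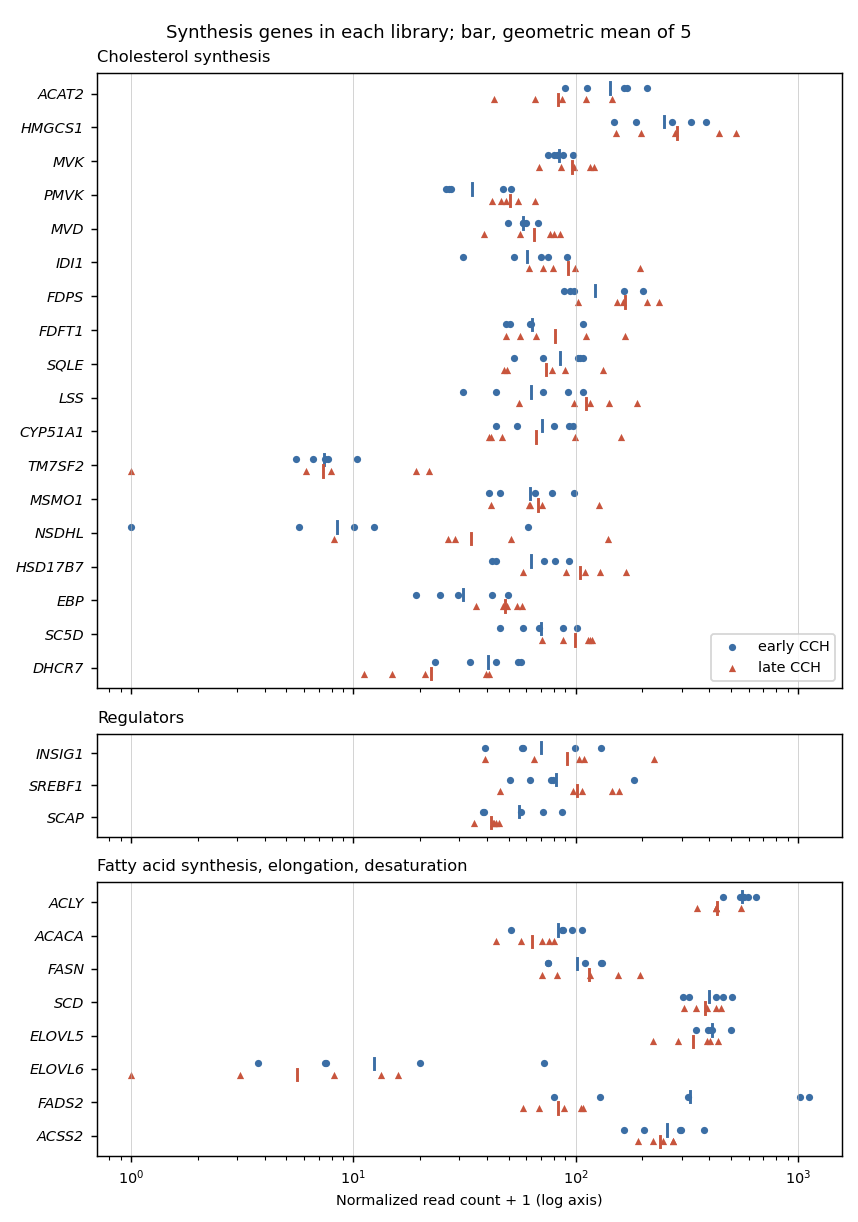
Normalized read count plus 1 (x axis, log scale) of the 29 synthesis genes in the table, by branch; circles are the 5 early and triangles the 5 late libraries, and bars are geometric means of 5. The stages overlap for every gene tested, FADS2 spreads from 78.8 to 1115 among early libraries, and NSDHL spreads from 0 to 60.1.

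In the cholesterol genes 1 late library stood apart. Among the 5 late libraries, late replicate 5 was the highest for 15 of the 17 cholesterol genes tested, all but ACAT2 and PMVK, where 20.4% of all genes had their highest late value in that library. Among all 10 libraries it was the highest for 14 of 17, against 9.91% of all genes. Its cholesterol genes lay a median of 0.96 on the log2 scale above the mean of the other late libraries, and all genes a median of 0.030 above. The count of 15 of 17 was the same with scaling to the column total or by TMM, alternatives chosen after seeing the data. This library was picked out by these same values, so no test is given.

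The summed value of the 18 cholesterol genes was 2634 in late replicate 5 and 1138 to 1922 in the other late libraries, and 969 to 1735 in early CCH. Late replicate 2 was second with 1922. At the other end, early replicate 2, with a sum of 969, was the lowest early library for 8 of 17 genes, against 23.8% of all genes. Early replicate 5, with a sum of 1168, was the lowest early library for 6 of 17, against 17.1% of all genes. Among all 10 libraries, early replicate 5 was the lowest for 6 of 17 genes and early replicate 2 for 3. The mean over the genes of log2(value + 1), centred on each gene's mean over 10 libraries, was −0.16 ± 0.33 in early and 0.16 ± 0.46 in late CCH (SD, n = 5). The difference of 0.32 was smaller than either SD, and it was 0.14 without late replicate 5.

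Late replicates 5 and 2 also had the highest summed values of 10 proliferation genes among late libraries, 3491 and 3405 against 1611 to 2675 in the other 3, and of 10 keratinocyte genes, 7227 and 10013 against 778 to 2186. The keratinocyte sum was higher still in early replicates 1 and 4, at 16032 and 17882, where the cholesterol genes summed to 1459 and 1535, below late replicates 2 and 5. In early CCH the proliferation sum was 2886 to 3287. For 11 sebaceous gland markers the sum was 310.2 in late replicate 2, 191 in late replicate 5 and 64.9 to 100.4 in the other late libraries, with MUC1 at 0 in all 10. Early replicates 1, 2 and 4 had sebaceous sums of 176, 189.8 and 185, about that of late replicate 5, and early replicate 2 among them had the lowest cholesterol sum. The make-up of these sums differed. KRT79 was the largest part, at 76.2, 67.9 and 87.4 in early replicates 1, 2 and 4 and 93.4 in late replicate 5. ALOX15B was 57.7 in early replicate 2 and 10.2 in early replicate 4, and AWAT1 11.2 and 47.3. The part of these cells in the cholesterol values was not tested.

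**Figure D3:**
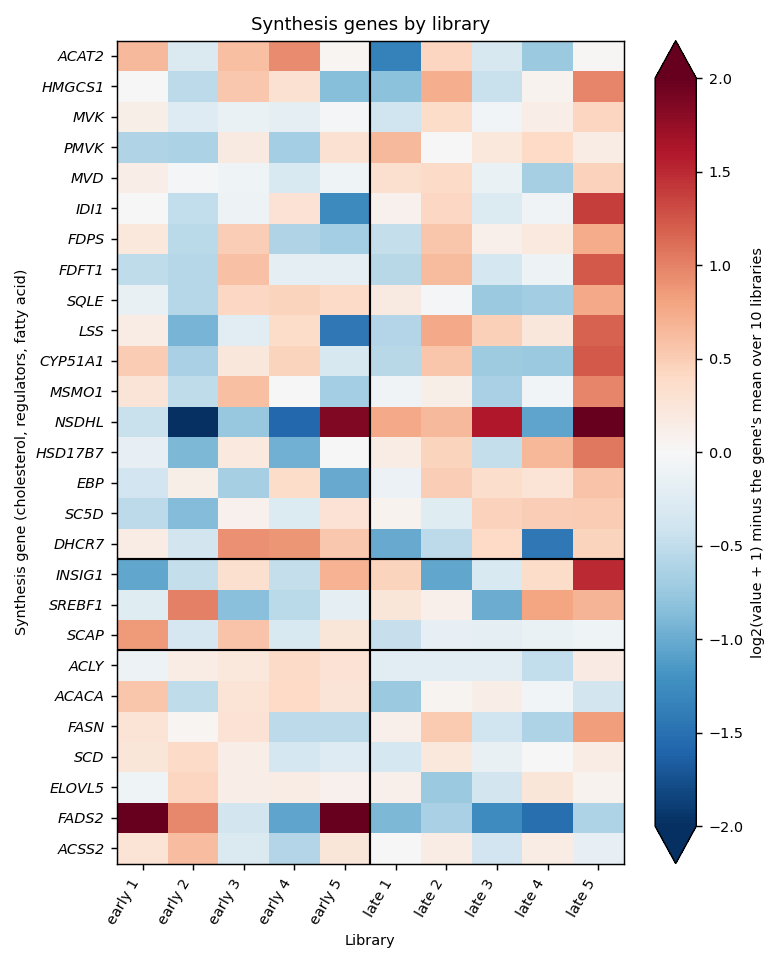
Deviation of log2(value + 1) from each gene's mean over the 10 libraries (color, from −2 to 2) for the 27 tested synthesis genes (rows, by branch) in the 5 early and 5 late libraries (columns). The column of late replicate 5 is the highest of the late columns for 15 of the 17 cholesterol genes. Early replicate 2 is the lowest of the early columns for 8 of them and early replicate 5 for 6.

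Of the regulators, SREBF1 had the highest mean. Its normalized read count was 76.2, 182, 49.8, 61.4 and 78.4 in early and 106, 96.1, 44.5, 155 and 145 in late CCH. Early replicate 2, the library with the lowest cholesterol sum, had the highest SREBF1 value of all libraries. The log2FC was 0.32 ± 0.39 (SE; interval −0.52 to 1.16). INSIG1, the sterol-sensing anchor of SCAP and itself a target of the SREBPs, was highest in late replicate 5, with 223 against 38.1 to 108 in the other late and 38.1 to 129 in early libraries, and a log2FC of 0.39 ± 0.45 (SE). With single libraries left out it ranged from 0.063, without late replicate 5, to 0.69, without late replicate 2, and that of SREBF1 from 0.15, without early replicate 3, to 0.61, without early replicate 2. SCAP varied less in late (33.8 to 44.1) than in early CCH (37.2 to 85.7), with a log2FC of −0.41 ± 0.27 (SE) that was −0.25 without early replicate 1. None of the 3 had an unadjusted p of at most 0.05.

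In the fatty acid branch, ACLY, which splits citrate to supply cytosolic acetyl-CoA to both pathways, had the highest mean of the whole set and the smallest SE. It had 459.8, 548, 569, 644 and 598 in early and 426, 426, 426, 349.7 and 553 in late CCH. Late replicates 1 to 4 lay below every early library, and late replicate 5 lay within the early range. The means were 564 ± 68.4 and 436 ± 73.2 (SD, n = 5). The log2FC was −0.38 ± 0.15 (SE; interval −0.70 to −0.052, limma, BY-adjusted p = 1, BH-adjusted p = 0.107).

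The steps that use this acetyl-CoA followed. ACACA, the acetyl-CoA carboxylase that makes malonyl-CoA, had a log2FC of −0.38 ± 0.25 (SE), which was −0.24 without late replicate 1, and FASN, the fatty acid synthase, 0.18 ± 0.30 (SE), which was −0.0042 without late replicate 5. ACSS2, which makes acetyl-CoA from acetate, had −0.10 ± 0.22 (SE). SCD, the desaturase that makes monounsaturated fatty acids, had 461, 506, 425, 303 and 324 in early and 305, 448, 349, 389.6 and 428 in late CCH. All late values lay within the early range, with a log2FC of −0.059 ± 0.18 (SE; interval −0.44 to 0.33) that turned to 0.031 with scaling to the column total. ELOVL5, an elongase of polyunsaturated fatty acids, had −0.28 ± 0.19 (SE). ELOVL6, an elongase of saturated fatty acids, was not tested, with values of 2.71 to 70.9 in early and 0 to 14.9 in late CCH.

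FADS2, the delta-6 desaturase that begins the synthesis of long polyunsaturated fatty acids, had the largest negative difference of the set. Its normalized read count was 1026, 320.1, 128, 78.8 and 1115 in early and 87.5, 105, 67.8, 57.3 and 107 in late CCH. Early replicates 1, 2, 3 and 5 lay above all late libraries, early replicate 4 lay among them, and the late libraries lay close together. The means were 534 ± 499.6 and 84.9 ± 22.0 (SD, n = 5). The log2FC was −1.97 ± 0.64 (SE; interval −3.37 to −0.58), with a limma BY-adjusted p of 0.556 and a BH-adjusted p of 0.0556, so that it did not pass either threshold.

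The call of FADS2 depended on the test. DESeq2 gave a log2FC of −2.65 and a BY-adjusted p of 0.00102, and edgeR a BY-adjusted p of 0.205. Without early replicate 1 or 5 the log2FC was −1.56 or −1.53, and without both of them, left out after seeing their values, −0.83 as a difference of means. Early replicate 1 had a high keratinocyte sum, 16032, and early replicate 5 the lowest early one, 1032. Early replicate 4, with the highest keratinocyte sum, 17882, had the lowest early FADS2 value. Sebaceous gland markers summed to 176 in early replicate 1 and 79.4 in early replicate 5, of which KRT79 gave 76.2 and 54.8. The sum of 9 adipocyte markers was 759, 812, 870, 174 and 673 in early replicates 1 to 5. In late CCH it was 208 to 770, highest in late replicate 3. CFD was the largest part of this sum in every library, at 723.5 in early replicate 1 and 624.8 in early replicate 5. ADIPOQ was 1.90 and 24.7 in these 2 libraries. The mean centred log2 level of the 3 adipocyte genes tested was −0.41 in early replicate 1 and 0.33 in early replicate 5. The high sum of early replicate 1 was thus mainly CFD. The part of these cells in the FADS2 values was not tested.

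**Figure D4:**
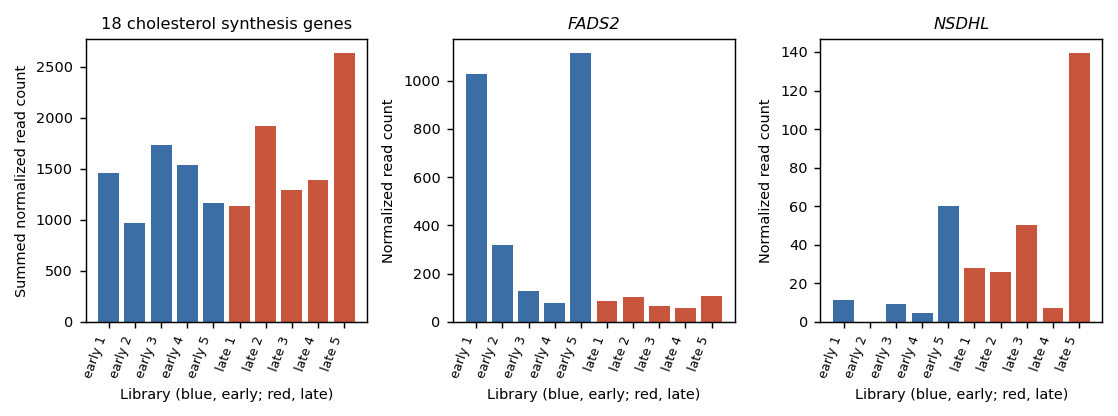
Bars from 0 for each of the 10 libraries (x axis; blue early, red late): summed normalized read count of the 18 cholesterol synthesis genes (left), and normalized read count of FADS2 (middle) and NSDHL (right). Late replicate 5 has the highest cholesterol sum, 2634, early replicates 1 and 5 the highest FADS2 values, 1026 and 1115, and late replicate 5 the highest NSDHL value, 139.5.

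For the whole fatty acid branch, the mean centred log2 level of the 7 genes tested was 0.21 ± 0.30 in early and −0.21 ± 0.16 in late CCH (SD, n = 5). The difference of −0.43 was −0.17 without FADS2, an alternative chosen after seeing the data. Late libraries then ranged from −0.23 to 0.12 and early ones from −0.089 to 0.19.

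Around the set, 48 other genes of sterol and fatty acid metabolism were listed, of which 46 were tested. By limma with BY, 1 was higher (NR1H3) and 1 lower (ACSL4) in late CCH, against 1.06% and 1.11% of all genes. With BH 2 were higher (FADS3 added) and 2 lower (HACD1 added), against 5.53% and 3.52% of all genes. At an unadjusted p of at most 0.05, 6 were higher and 11 lower, 37.0% together against 30.9% of all genes. Of the 46, 3 had all late values above and 5 all late values below the early ones, against 5.91% and 6.05% of all genes. The median log2FC of this list was −0.23.

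ACSL4, which activates long polyunsaturated fatty acids for use in membrane lipids, had 1059, 767, 876, 656 and 642 in early and 279, 365, 258, 281 and 330.5 in late CCH. Every late value lay below every early one. The log2FC was −1.38 ± 0.17 (SE, limma, BY-adjusted p = 0.00932), and the gene passed the threshold in each of the alternatives run, with log2FC of −1.46 to −1.28.

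NR1H3, the sterol-activated receptor LXR alpha, had 16.2, 43.7, 20.8, 29.9 and 8.59 in early and 389.8, 139, 54.2, 494 and 232 in late CCH. Every late value lay above every early one, with late values spread over a wide range. The log2FC was 3.22 ± 0.57 (SE, limma, BY-adjusted p = 0.0454). The adjusted p was above 0.05 when any early library but replicate 2 or any late library but replicate 3 was left out (highest 0.148) and with robust moderation (0.0604).

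Among the remaining listed genes, ABCG1, a sterol exporter, had 103 to 208 in early and 129.8 to 553 in late CCH, with a log2FC of 0.86 ± 0.38 (SE, limma, BY-adjusted p = 1, BH-adjusted p = 0.145), and 0.56 without late replicate 1. HACD1, a dehydratase of very long chain fatty acid elongation, had 37.1 to 219 in early and 4.97 to 29.1 in late CCH, with a log2FC of −2.64 ± 0.54 (SE, limma, BY-adjusted p = 0.0784). The call of HACD1 depended on the test: DESeq2 gave a log2FC of −2.74 and a BY-adjusted p of 0.000147, and edgeR a BY-adjusted p of 0.0896. FADS3, a desaturase acting on sphingoid bases, had 44.1 to 111 in early and 75.5 to 218 in late CCH, with a log2FC of 1.21 ± 0.32 (SE, BY-adjusted p = 0.247). ACACB, the mitochondrial form of acetyl-CoA carboxylase, had 40.8 to 79.0 in early and 8.39 to 55.2 in late CCH, with a log2FC of −1.30 ± 0.51 (SE, BY-adjusted p = 1).

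**Figure D5:**
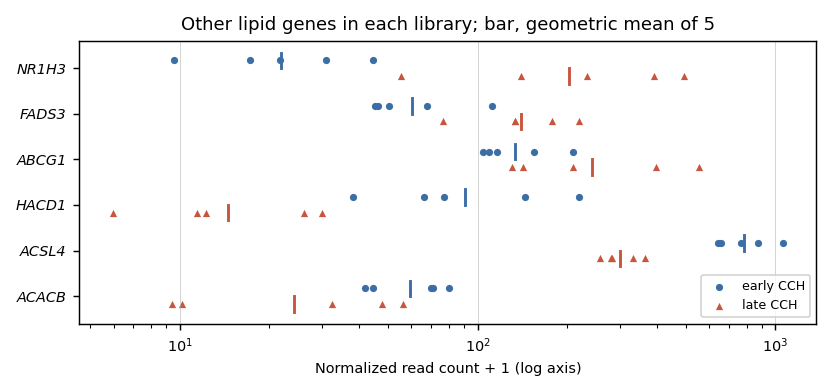
Normalized read count plus 1 (x axis, log scale) of 6 other lipid genes, with circles for the 5 early and triangles for the 5 late libraries and bars for geometric means of 5. The stages do not overlap for NR1H3 (late above early) or for ACSL4 and HACD1 (late below early).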

How the data were processed

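QuantSeq 3′ reads of 10 FFPE tumors were trimmed with Cutadapt, aligned with STAR to CanFam3.1, and counted per gene with featureCounts by the authors, with reads of several mapping places shared among them, so that genes with near-identical copies are uncertain (tools and build per the labels and the study's methods; versions not given in the sources used here). The deposited table holds normalized read counts, a signal per gene and library made by the authors by dividing read counts by 1 factor per library; DESeq2 is among the tools the labels name. Of 166096 values above 0, 100% were whole multiples of what 1 read was worth in that library (tolerance 1e-06). Intervals from reads cover counting error only, since the reads carry no molecular identifiers here.

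Column names give the stage but not the sample, so replicate numbers only name libraries, and DV200, age and batch could not enter a fit. Of 21 value columns, 11 match no sample and were not used. Tumors came from different dogs as far as the labels say.

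Values were tested on log2(value + 1) with limma 3.58.1 (R 4.3.3; moderated test with a mean-variance trend, two-sided, no covariates) on genes that reached a value of 10 in 5 or more libraries. A gene was called where the p, BY-adjusted over all 12397 genes, was 0.05 or less and the log2FC was 1 or more in size; fold changes on this scale understate those of low genes. The script was checked on simulated data with log2FC larger than those of most members, so that detection of smaller differences was not checked. edgeR 4.0.16 (quasi-likelihood) and DESeq2 1.42.0 (Wald) were run on the recovered reads as alternatives, beside other adjustments, pseudocounts, filters, weights and scalings, and each library was left out in turn. Levels were not divided by transcript length, as 3′ reads come from transcript ends.

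The members, the list of other lipid genes and the marker lists (T cell, B cell, macrophage, Langerhans and dendritic cell, keratinocyte, sebaceous gland, adipocyte, proliferation) were chosen with earlier results of these data known. Values in every library are given for called members, the 10 with the smallest limma p and the highest member of each branch. They are also given for members whose call or sign changed with a setting other than leaving out a library. Of the other lipid genes, those called and the 3 highest and 3 lowest log2FC are named, and of each marker list the 2 genes with the highest mean. FADS2 without early replicates 1 and 5 together and the fatty acid branch without FADS2 were added after values were seen. All 29 members in the table matched a symbol of the RefSeq gene table (assembly UU_Cfam_GSD_1.0), which was used for names only; promoter and protein sequences were not used here.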

Additional observations from a re-analysis of the deposited data

Results flagged for a closer look

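For each synthesis gene, each other lipid gene named and each mean branch level, the highest and lowest of the 5 libraries of a stage was compared with its nearest neighbour as a share of the stage's range, and a library was singled out above Dixon's critical value of 0.71. Of 76 groups of 5 values, 6 were singled out, where chance gives about 3.8 if values are normally distributed and groups independent. The gene values were compared without a log and the genes share the same libraries, so that 3.8 is a rough guide only. IDI1 was 194 in late replicate 5, and the next late value was 98.9. NSDHL was 60.1 in early replicate 5, and the next early value was 11.4. FDFT1 was 107 in early replicate 3, and the next early value was 62.3. SREBF1 was 182 in early replicate 2, and the next early value was 78.4. SCAP was 33.8 in late replicate 1, the lowest late value, and the next was 41.6. ELOVL6, which was not tested between stages, was 70.9 in early replicate 4, and the next early value was 19.0.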

How the results depend on the processing

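Of 23 alternative settings, DESeq2 called 1 synthesis gene lower, FADS2, and the others called 0 in either direction. The sign of the log2FC was kept in every alternative for 21 of 27 genes and turned in at least 1 for 6. CYP51A1 was 0.0014 with scaling to the column total, 0.093 by edgeR, 0.081 by DESeq2 and −0.41 to 0.087 with single libraries left out. SCD was 0.031 with scaling to the column total and −0.15 to 0.030 with single libraries left out. With single libraries left out, HMGCS1 ranged from −0.015 to 0.43, MSMO1 from −0.10 to 0.30, FASN from −0.0042 to 0.36 and ACSS2 from −0.26 to 0.039, the lowest of the first 3 without late replicate 5. The fatty acid branch difference was −0.17 without FADS2, which was chosen after seeing the data. Over all genes, 131 were called higher and 138 lower; the counts were 685 and 436 with BH, 480 and 330 by DESeq2, 217 higher with library weights and 81 higher by edgeR, and 18 to 144 higher and 29 to 153 lower with single libraries left out. Scaling to the column total put 64.0% of calls on the higher side, against 48.7%. The cause of these changes was not tested. No paired analysis was possible because no column could be tied to a numbered sample and the tumors are from different dogs. The fit with DV200 and the promoter motif search were not run, for want of a sample for each column and of promoter sequences. With 5 libraries a stage, SEs of 0.15 to 0.98 limit what could be detected, and genes under 10 normalized read counts were not tested.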

Other observations

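Marker lists of cell types were tested gene by gene between the stages. Of all genes tested, 1.06% were called higher and 1.11% lower with BY, and 5.53% higher and 3.52% lower with BH. Of 10 T cell genes, 1 was higher in late CCH by limma with BY (CD6) and 10 with BH; CD2 had 30.5 to 414 in early and 571 to 1114 in late CCH, and CD3E 2.86 to 393 and 686 to 1015. Of 6 B cell genes tested, 0 passed with BY and 3 were higher with BH; CD22 had 375 to 576 in early and 203 to 899.7 in late CCH, and CD79A 32.2 to 169 and 236 to 656. Of 8 macrophage genes tested, 0 passed with BY and 2 were higher with BH; C1QA had 254 to 2861 in early and 1502 to 3302 in late CCH, and C1QC 159 to 2300 and 1302 to 2778. Of 7 Langerhans and dendritic cell genes, 2 were lower with BY (FLT3 and FCER1A) and 4 with BH; CD1A6 had 122 to 944 in early and 118 to 213 in late CCH, and CIITA 125 to 301 and 193 to 520.1. CD207 and ZBTB46 were not analysed here.

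The lists of other skin cells and of dividing cells showed 0 calls with BY in 10 keratinocyte, 5 sebaceous gland, 3 adipocyte and 10 proliferation genes tested, and with BH 1 keratinocyte gene was lower. At an unadjusted limma p of at most 0.05, 1 keratinocyte, 1 adipocyte and 1 proliferation gene were lower and 0 sebaceous gland genes passed. Of all genes tested, 15.6% were higher and 15.3% lower at this threshold. KRT14 had 151 to 3896 in early and 94.9 to 2541 in late CCH, and KRT10 250.1 to 4277 and 258 to 2545. KRT79 had 54.8 to 87.4 in early and 33.8 to 124 in late CCH, and ALOX15B 0.905 to 57.7 and 2.91 to 39.96. CFD had 122 to 745 in early and 141 to 533 in late CCH, and ADIPOQ 1.90 to 51.2 and 3.15 to 151. NUSAP1 had 935 to 1531 in early and 730.2 to 1179 in late CCH, and TOP2A 584 to 953 and 296 to 763.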
